A study of Mus musculus with 13 samples.

Results

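The genes described here make the machinery that brings proteins into the endoplasmic reticulum (ER), glycosylates them there and carries them to the Golgi and back: the ER translocon, N-glycosylation and COP vesicle genes. They were chosen by name, with earlier results of these data known, as 50 gene symbols. The only measured value in the rule was 10 or more counts summed over the 13 libraries of the study. All 50 were found among 55357 gene identifiers, and 48 of them had enough counts to be tested, of 11073 genes tested in all. The other 2, Srp54a and Kdelr3, had 31 counts each.

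Brown adipose tissue (BAT), which turns fuel into heat, was taken from mice of 4 groups. KO cold (n = 4) and KO RT (n = 3) carried the genotype Stim1/2_Adp-Cre, in which Cre driven by the adiponectin promoter removes floxed Stim1 and Stim2 in adipocytes, while the other cells of the depot keep both genes. Control cold (n = 4) and control RT (n = 2) carried the genotype Stim1/2_fl/fl, which the study also calls wild type and which is taken here as floxed alleles without Cre. Cold groups had spent 6 h at 4 °C and RT groups had stayed at room temperature; no age is given. STIM1 and STIM2 sense calcium in the ER and open calcium channels of the plasma membrane when it runs low. Nothing in the labels says that each library is a different animal; p-values therefore speak of the spread among libraries, which may be technical.

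Secreted and membrane proteins are made by ribosomes that the signal recognition particle brings to the Sec61 channel in the ER membrane; there the signal peptidase removes the signal sequence and the oligosaccharyltransferase attaches a preassembled sugar chain to asparagines. COPII-coated vesicles then carry cargo out of the ER, and COPI-coated vesicles return escaped ER proteins and cargo receptors from the Golgi. In brown adipocytes the same route supplies lipoprotein lipase, adipokines and surface receptors, and many of its genes are known targets of the unfolded protein response, the program that enlarges the ER when misfolded proteins build up in it.

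Libraries held 1570684 to 2016178 counts (median 1800685), and the 50 genes together took 0.454% to 0.576% of a library. The tested members had 346 to 6677 counts over all libraries and at least 15 in each. Levels are given as counts per 1000000 (CPM) after scaling libraries by the trimmed mean of M values; one 3′ tag stands for one transcript end, and levels are compared between groups, not between genes. Stim1 stood at 78.8 to 107.8 CPM in the KO cold libraries, against 114.4 to 133.8 CPM in control cold, and Stim2 at 13.5 to 29.7 and 31.1 to 54.5 CPM; at RT Stim1 stood at 62.0 to 86.1 CPM in KO and 126.0 to 149.9 CPM in control, and Stim2 at 21.0 to 25.2 and 29.0 to 40.4 CPM, with no overlap between genotypes. In cold Stim2 passed (log2 fold change -0.88 ± 0.24, adjusted p = 0.0382) and Stim1 did not (-0.45 ± 0.13, adjusted p = 0.057). Where the tags lie relative to the deleted exons is not given, so these levels check the genotype labels only in part. All 11 brown adipocyte markers were detected in the libraries, Ucp1 and Cidea among them. Skeletal muscle markers summed to 1428 and 941 CPM in KO RT libraries 1 and 2 and 2246 CPM in control RT library 1, against 0.612 to 312 CPM in the other 10 libraries, so the cold results are also given without those 3 libraries.

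**Figure D1:**
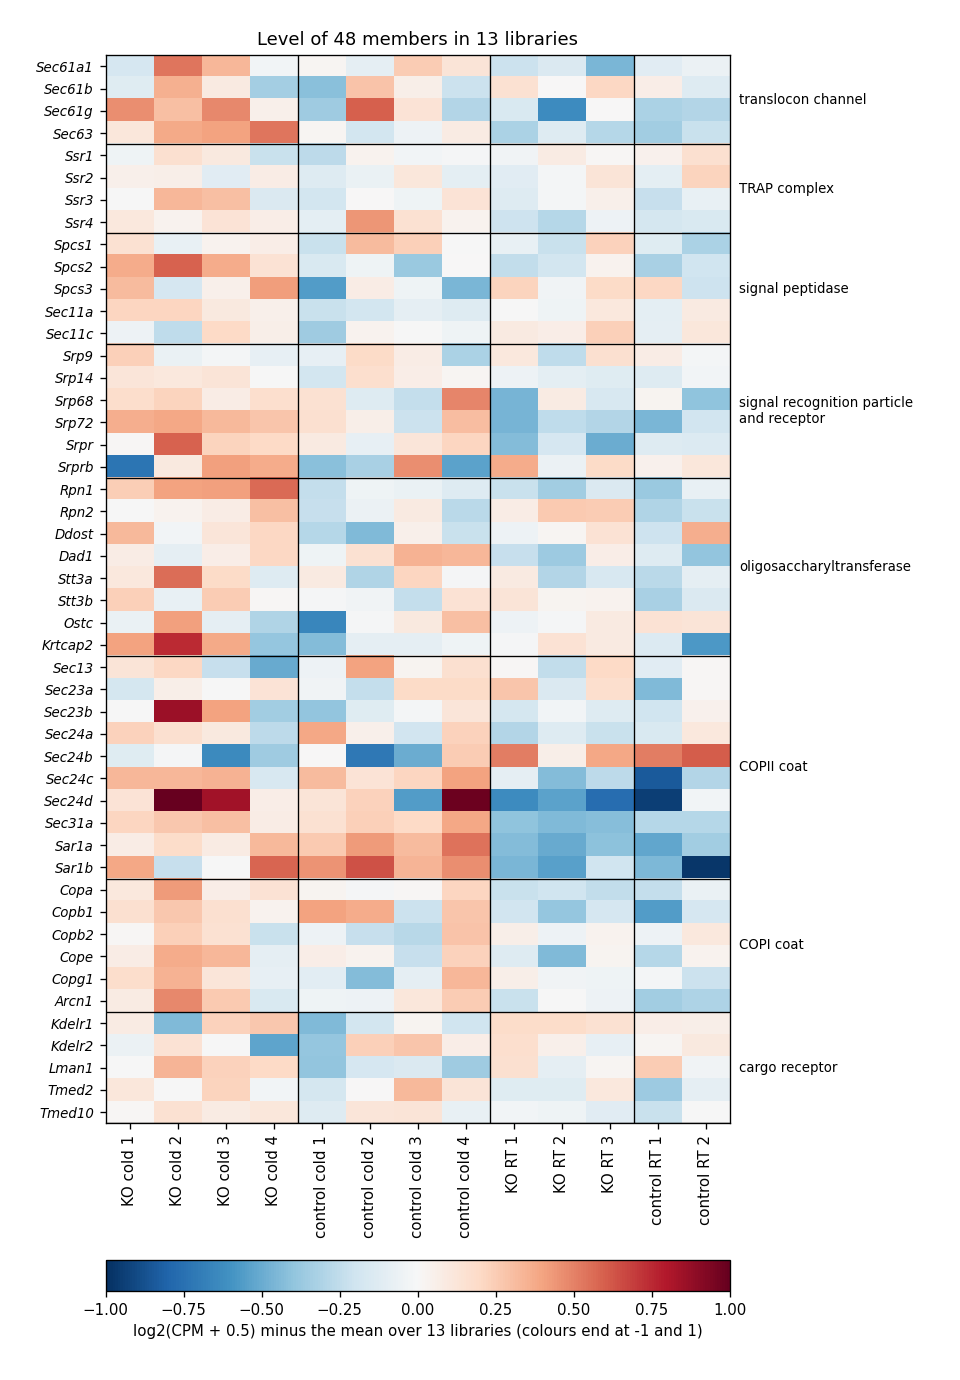
Level of the 48 tested members (rows, grouped by role) in the 13 libraries (columns), as log2(CPM + 0.5) minus the mean of that gene over the 13 libraries; red is above and blue below that mean, and colours end at -1 and 1. Rpn1, Spcs2 and Sec63 are redder in the 4 KO cold libraries than elsewhere, and Sar1a and Sec31a are redder in KO cold and control cold libraries than at RT.

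Loss of Stim1 and Stim2 in adipocytes went with higher levels of 3 members after 6 h of cold and lower levels of none. They were Rpn1 of the oligosaccharyltransferase, Spcs2 of the signal peptidase and the cargo receptor Lman1. The increases were of 1.37- to 1.45-fold. A gene counts as having risen or fallen where its Benjamini-Hochberg adjusted p over all 11073 genes, from edgeR's quasi-likelihood test, is under 0.05. By that rule 3 of 48 members (6.25%) rose in KO cold against control cold, where 5.93% of all genes passed in either direction and 2.44% rose, so the share is close to that of all genes. The log2 fold change was above 0 for 35 of 48 members, with a median of 0.12, against 49.4% of all genes and a median of -0.01. Levels in all 4 KO cold libraries lay above those in all 4 control cold libraries for 5 tested members (Rpn1, Spcs2, Lman1, Sec63 and Sec11a; 6.28% of all genes did so), and below them for none (6.53% of all genes). The count was 1, Rpn1 alone, without KO cold library 2 or 3, and 4 without KO cold library 1 or either control RT library. The shares of all genes that passed in these fits are not given here, so these counts cannot be set against them. In whole tissue, a change in the number of cells of a type cannot be told apart from a change in RNA per cell.

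Rpn1, or ribophorin I, is a subunit of every oligosaccharyltransferase complex. It stood at 206.2, 229.6, 231.2 and 257.3 CPM in the KO cold libraries, against 146.9, 168.7, 165.4 and 158.8 CPM in control cold. At RT it stood at 148.9, 136.6 and 156.9 CPM in KO and 134.3 and 164.5 CPM in control. The KO cold libraries were the 4 highest of the 13, and the other 3 groups lay close together. In cold the log2 fold change was 0.53 ± 0.11 (SE; adjusted p = 0.00776), and at RT it was -0.02 ± 0.14 (adjusted p = 1). Rpn1 passed under each of the 19 alternative settings, with adjusted p of 0.000699 to 0.0286.

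Spcs2, an accessory subunit of the signal peptidase, stood at 149.9, 175.3, 150.2 and 128.7 CPM in the KO cold libraries, against 104.2, 112.4, 89.8 and 116.5 CPM in control cold. At RT its levels were 97.8, 102.1 and 119.1 CPM in KO and 92.4 and 101.2 CPM in control. As for Rpn1, KO cold stood above the other groups, which overlapped each other. The log2 fold change in cold was 0.52 ± 0.12 (SE; adjusted p = 0.0214). Spcs2 no longer passed without KO cold library 2 or 3 or control cold library 3, where adjusted p reached 0.0722.

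Lman1, also called ERGIC-53, is a lectin that carries glycoproteins from the ER towards the Golgi. It stood at 234.4, 296.9, 275.7 and 270.3 CPM in the KO cold libraries, against 178.5, 209.4, 212.5 and 183.5 CPM in control cold, with no overlap. At RT it stood at 262.9, 220.3 and 237.8 CPM in KO and 280.5 and 229.0 CPM in control. The control cold libraries were thus the 4 lowest of the 13, while KO cold overlapped with both RT groups. The log2 fold change of KO against control in cold was 0.46 ± 0.11 (SE; adjusted p = 0.0239), and without any one of 5 libraries (KO cold 2, 3 or 4, control cold 1 or 4) it did not pass, with adjusted p of at most 0.0723.

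Sec63, the channel partner that recruits the chaperone BiP to the translocon, came just short of the threshold. In cold its levels were 130.4, 157.0, 159.8 and 175.5 CPM in KO and 122.7, 106.3, 116.5 and 127.8 CPM in control, and at RT 96.7, 110.2 and 99.2 CPM in KO and 94.7 and 103.7 CPM in control. KO cold again stood above the other 3 groups. In log2 the difference in cold was 0.40 ± 0.11 (SE; adjusted p = 0.05002), and DESeq2 called it (adjusted p = 0.0447). Sec11a, a catalytic subunit of the signal peptidase, stood at 117.5, 117.4, 108.0 and 104.4 CPM in the KO cold libraries, against 86.4, 89.0, 94.8 and 92.5 CPM in control cold, also without overlap, with a log2 fold change of 0.30 ± 0.10 (SE; adjusted p = 0.0979).

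**Figure D2:**
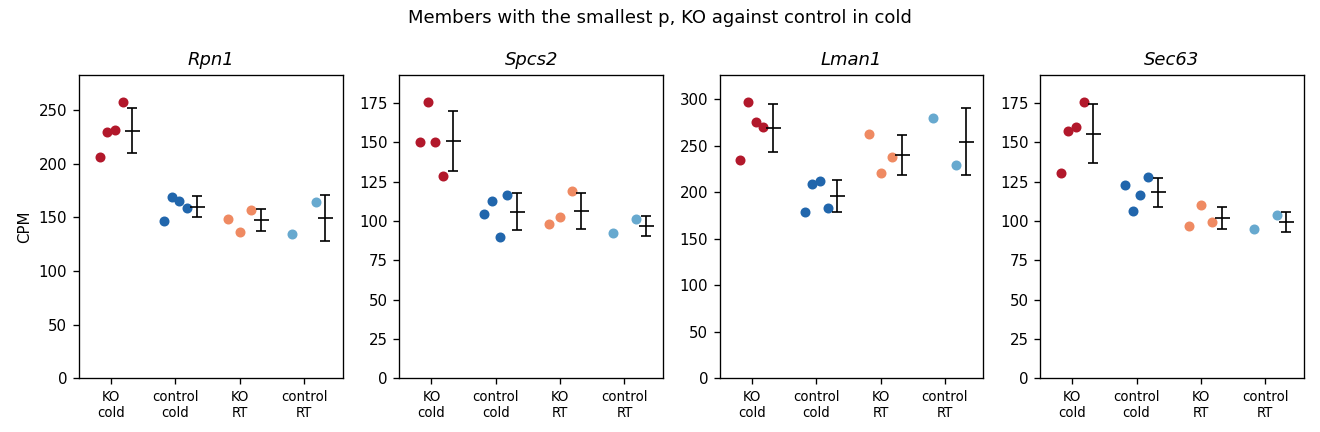
CPM of Rpn1, Spcs2, Lman1 and Sec63 in each library (points) of KO cold, control cold, KO RT and control RT, with the mean and SD of each group beside them. For each gene the 4 KO cold points lie above the 4 control cold points; for Rpn1 they lie between 206.2 and 257.3 CPM, above every other library.

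The members were also counted by early and late steps of the route. Among the 27 tested genes of ER entry and glycosylation, 24 had a log2 fold change above 0 in KO cold against control cold (median 0.15), of which 2 passed. Among the 21 tested genes of the coats and cargo receptors 11 did (median 0.00), of which 1 passed. The difference between these groups was not tested.

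Of the translocon channel, Sec61a1, which forms the pore, stood at 158.5 to 258.8 CPM in the KO cold libraries, against 166.8 to 211.9 CPM in control cold, with a log2 fold change of 0.12 ± 0.14 (SE) that did not pass. The small subunits Sec61b and Sec61g had log2 fold changes of 0.07 and 0.26, and did not pass either. The 4 genes of the TRAP complex, which sits beside the channel and helps some precursors to enter, had log2 fold changes from -0.06 (Ssr4) to 0.15 (Ssr3), with none passing. All 6 tested genes of the signal recognition particle and its receptor lay above 0, from 0.04 (Srp9) to 0.26 (Srprb), and none passed. The summed level of all 7 genes, the untested Srp54a included, was 629.2 to 679.3 CPM in the KO cold libraries, against 568.7 to 630.4 CPM in control cold, a narrow overlap.

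Summed over the 8 oligosaccharyltransferase genes, of which Rpn1 is one, the level was 753.4 to 789.9 CPM in the KO cold libraries, against 594.4 to 677.7 CPM in control cold, with no overlap, and 616.8 to 669.2 CPM in KO RT and 559.6 to 609.3 CPM in control RT, again with no overlap. Rpn1 alone passed in cold, and without it the sums of KO cold and control cold overlap. Of the 8 genes, 7 lay above 0. Krtcap2, a subunit that ties the STT3A form of the enzyme to the translocon, stood at 55.1, 69.9, 54.0 and 31.6 CPM in the KO cold libraries, against 30.5, 38.9, 39.0 and 40.2 CPM in control cold, overlapping through KO cold library 4 (log2 fold change 0.51 ± 0.20, adjusted p = 0.15). Ddost, a subunit shared by both forms, had a log2 fold change of 0.38 ± 0.16 (adjusted p = 0.199). The catalytic paralogs Stt3a, which works on chains still entering the channel, and Stt3b, which also works after entry, had log2 fold changes of 0.19 ± 0.16 and 0.15 ± 0.11 and did not pass. Rpn2, Ostc and Dad1 lay at 0.22, 0.05 and -0.14.

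The signal peptidase genes summed to 518.6 to 554.5 CPM in the KO cold libraries, against 411.2 to 511.6 CPM in control cold, with no overlap. These sums include Spcs2, and without it KO cold and control cold overlap. Of the catalytic paralogs, Sec11a is given above and Sec11c stood at 83.5 to 114.2 CPM in the KO cold libraries, against 77.8 to 101.9 CPM in control cold (log2 fold change 0.08 ± 0.13). The difference between the paralogs was not tested, and Sec11a overlaps Nmb, which had 688 counts, on the same strand. Spcs1 and Spcs3, the other accessory subunits, had log2 fold changes of -0.05 and 0.40, without passing.

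Among the 10 COPII genes 8 lay below 0 in KO cold against control cold and none passed. Sar1a, one of the paired GTPases that start the coat, stood at 165.2, 177.9, 166.0 and 196.4 CPM in the KO cold libraries, against 187.8, 211.3, 195.8 and 228.0 CPM in control cold, overlapping through KO cold library 4, with a log2 fold change of -0.22 ± 0.10 (SE; adjusted p = 0.244). Sar1b lay at -0.26 ± 0.16 (adjusted p = 0.407). Sec23a and Sec23b, the inner-coat paralogs, lay at -0.03 ± 0.16 and 0.40 ± 0.21, the second with KO cold levels spread from 42.3 to 98.1 CPM. The 6 COPI coat genes lay between -0.07 (Copb1) and 0.21 (Copg1). Of the KDEL receptors, which return escaped ER residents, Kdelr1 lay at 0.25 ± 0.14 and Kdelr2 at -0.16 ± 0.17, and the p24 cargo receptors Tmed2 and Tmed10 lay at 0.00 and 0.07; none of these passed.

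Markers of plasma and B cells, a cell type rich in ER, summed to 25.7 to 41.2 CPM in the KO cold libraries, against 9.29 to 24.2 CPM in control cold, without overlap, with 7 of 9 detected and the defining markers Mzb1 and Cd79a at 0 in the 13 libraries. These sums include Derl3, and without it KO cold and control cold overlap. At RT the markers summed to 22.8 to 32.1 CPM in KO and to as much as 45.2 CPM in control. Of the 4 tested, Derl3 passed, with means of 5.2 ± 3.7 CPM in the KO cold libraries and 0.35 ± 0.71 CPM in the control cold libraries (SD, n = 4 each), where 3 of 4 were at 0; Jchain and Igkc lay above 0 and Ighm below, at -1.16 in log2. All 8 tested macrophage markers lay below 0 (median -0.51) and none passed, with sums of 119 to 158 CPM in the KO cold libraries and 111 to 311 CPM in the control cold libraries. Of 5 tested Schwann cell markers Pmp22 fell, at 30.9 to 52.0 CPM in the KO cold libraries and 56.5 to 113.1 CPM in the control cold libraries. The list as a whole was mixed, with 2 of the 5 above 0 and a median of -0.11. Its 6 markers summed to 221 to 250 CPM in the KO cold libraries, within the 196 to 394 CPM of control cold. The 9 fibroblast markers summed to 562 to 656 CPM in the KO cold libraries, against 519 to 1494 CPM in control cold, and the 11 brown adipocyte markers to 23341 to 24904 CPM and 24883 to 29622 CPM. Their part in the results was not tested.

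**Figure D3:**
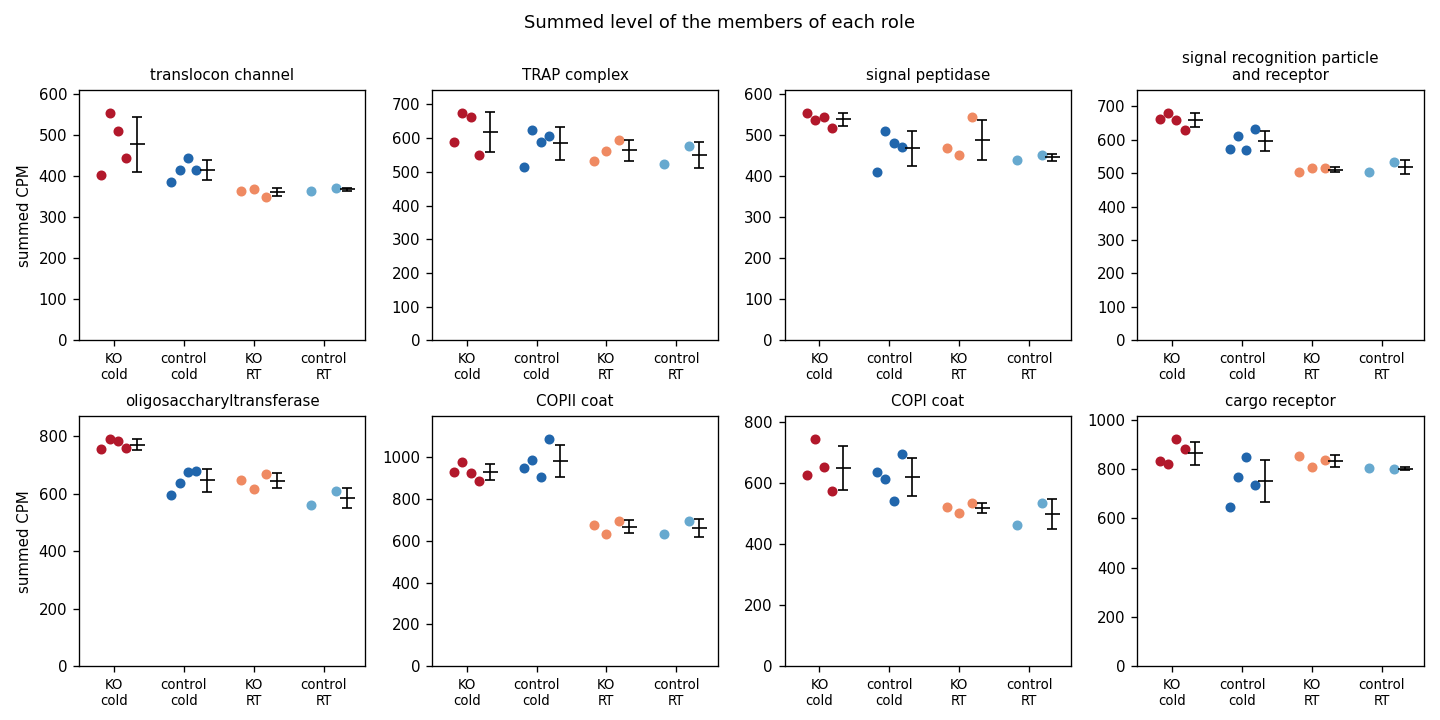
Summed CPM of the members of each role in each library (points) of KO cold, control cold, KO RT and control RT, with the mean and SD of each group beside them. The oligosaccharyltransferase sums are 753.4 to 789.9 in KO cold, above the 594.4 to 677.7 of control cold. They include Rpn1, and without it these 2 groups overlap. The COPII sums are higher in both cold groups than in both RT groups.

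At room temperature no member passed, nor did any gene (0% of all genes), with 3 KO against 2 control libraries. By edgeR's quasi-likelihood test 1 of 48 members, Rpn2, had an unadjusted p under 0.05, as had 346 of 11073 genes, and DESeq2 called no member. Rpn2, a subunit of both oligosaccharyltransferase forms, stood at 71.9, 82.1 and 81.4 CPM in KO RT and 55.2 and 58.5 CPM in control RT, a log2 fold change of 0.47 ± 0.16 (SE; unadjusted p = 0.00901, adjusted p = 1). In 5 tested members the KO RT libraries were all above control RT (Rpn2, Stt3b, Krtcap2, Arcn1 and Kdelr1), where 8.68% of all genes were. In 4 they were all below (Sec61a1, Srpr, Ostc and Sec31a), where 7.96% of all genes were. The log2 fold change was above 0 for 25 of 48 members, with a median of 0.03. Stt3b stood at 158.5, 148.0 and 148.5 CPM in KO RT and 115.9 and 131.4 CPM in control RT (0.30 ± 0.15 in log2), and Krtcap2 at 41.0, 45.9 and 44.1 CPM in KO RT and 37.7 and 27.7 CPM in control RT (0.40 ± 0.26). With these and Rpn2, 3 of the 8 oligosaccharyltransferase genes were higher in each KO RT library than in each control RT library, and 1, Ostc, was lower.

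A stay of 6 h at 4 °C went with higher levels of 4 of the 10 COPII coat genes and of Srp72, a subunit of the signal recognition particle, in both genotypes. In KO cold against KO RT 12 members rose and none fell: Srp72 and the receptor subunit Srpr, the channel genes Sec61a1 and Sec63, Spcs2, Rpn1, the COPII genes Sar1a, Sar1b, Sec24c, Sec24d and Sec31a, and the COPI gene Copa. That is 25.0% of 48, where 18.9% of all genes passed in either direction and 9.43% rose. In control cold against control RT 6 members rose (Srp72, Sar1a, Sar1b, Sec24c, Sec31a and the COPI gene Copb1) and Sec24b fell. That is 14.6%, where 25.2% of all genes passed, 12.7% rising and 12.6% falling. The 5 genes Srp72, Sar1a, Sar1b, Sec24c and Sec31a rose in both genotypes. The share of all genes that rose in both is not given here. Of these calls, Srp72 in control was lost under 15 of 19 alternatives, Sec24c in KO under 11 and Sar1b in KO under 6. The median log2 fold change over the members was 0.17 in KO and 0.16 in control, against -0.01 and -0.02 over all genes.

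Among the tested members, all cold libraries lay above all RT libraries in 14 in KO (15.8% of all genes did) and in 10 in control (19.8%). All lay below in 1 in KO (16.4%), Sec24b, and in 4 in control (20.6%): Sec24b, Ssr1, Kdelr1 and Lman1. The RT groups hold only 3 and 2 libraries. The count of members passing in KO was 6 without KO RT library 1 and 7 without KO RT library 2, and in control it was 2 without control RT library 1. Shares of all genes that passed with a library left out are not given here, so these counts cannot be set against them. Leaving out the 3 libraries high in muscle markers leaves 1 RT library per genotype, so only fold changes are given for it. The log2 fold changes there were 0.63 for Srp72, 0.64 for Sec31a, 0.56 for Rpn1 and 0.58 for Sar1a in KO, against 0.67, 0.64, 0.65 and 0.62 with all libraries. The 12 KO members lay between 0.34 (Spcs2) and 1.37 (Sec24d), against 0.42 (Copa) to 1.25 (Sec24d) with all libraries, each above 0. Of the 7 in control, Copb1 lay at 0.39 against 0.58, Srp72 at 0.28 against 0.42, Sec24c at 0.56 against 0.82 and Sec31a at 0.53 against 0.53.

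Sar1a stood at 165.2, 177.9, 166.0 and 196.4 CPM in the KO cold libraries, against 116.0, 110.2 and 118.1 CPM in KO RT, and at 187.8, 211.3, 195.8 and 228.0 CPM in the control cold libraries and 109.4 and 122.9 CPM in control RT. No cold library came near an RT library in either genotype. In log2 it rose with cold by 0.62 ± 0.11 (SE; adjusted p = 0.00133) in KO and by 0.82 ± 0.13 (adjusted p = 0.000377) in control. In control it passed under each of the 19 alternatives.

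Its paralog Sar1b, whose loss in humans blocks chylomicron export from enterocytes, stood at 179.3, 116.3, 136.7 and 204.9 CPM in the KO cold libraries, 99.3, 93.5 and 119.1 CPM in KO RT, 187.2, 212.5, 173.5 and 188.5 CPM in the control cold libraries and 100.2 and 69.3 CPM in control RT. The KO libraries touched across temperatures, those of the control did not. The log2 fold change in cold was 0.61 ± 0.18 (SE; adjusted p = 0.0266) in KO and 1.16 ± 0.21 (adjusted p = 0.00116) in control. The KO call was lost under 6 of 19 alternatives, with adjusted p of at most 0.44: the replicate block, the 3 libraries high in muscle markers left out, and KO cold library 1 or 4 or KO RT library 1 or 2 left out. The difference between genotypes was -0.55 ± 0.28 (95% interval -1.13 to 0.04; adjusted p = 0.623), which did not pass.

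Sec31a, which with Sec13 forms the outer cage of the COPII coat, stood at 188.5, 195.1, 199.1 and 170.4 CPM in the KO cold libraries, against 122.6, 119.4 and 120.7 CPM in KO RT, and at 179.7, 191.5, 185.8 and 211.8 CPM in the control cold libraries and 132.9 and 132.6 CPM in control RT. Cold and RT libraries were far apart in both genotypes, with log2 fold changes of 0.64 ± 0.11 (SE; adjusted p = 0.000607) in KO and 0.53 ± 0.12 (adjusted p = 0.00473) in control. Its cage partner Sec13 lay at -0.08 in KO and 0.20 in control and did not pass in either.

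The 4 Sec24 paralogs, which bind cargo within the inner coat, did not all move the same way in cold. Sec24c stood at 93.0, 92.9, 93.9 and 66.0 CPM in the KO cold libraries, 69.4, 54.5 and 61.4 CPM in KO RT, 92.2, 80.9, 85.5 and 97.4 CPM in the control cold libraries and 40.9 and 60.3 CPM in control RT; KO cold library 4 alone lay among the RT values. It rose by 0.48 ± 0.16 in log2 in KO (SE; adjusted p = 0.047) and by 0.82 ± 0.19 in control (adjusted p = 0.00514), the KO call being lost under 11 of 19 alternatives. Sec24d stood at 43.5, 83.5, 70.9 and 41.2 CPM in the KO cold libraries, 25.3, 27.0 and 23.1 CPM in KO RT, 43.2, 46.3, 26.6 and 78.4 CPM in the control cold libraries and 20.2 and 38.6 CPM in control RT. Its KO cold libraries all exceeded those at RT, and its control libraries overlapped. It had the largest log2 increase of the members in KO, 1.25 ± 0.33 (adjusted p = 0.0133; lost under 2 of 19 alternatives), and 0.74 ± 0.38 in control, which did not pass (adjusted p = 0.163).

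Sec24b went the other way. It stood at 22.6, 24.5, 15.8 and 19.2 CPM in the KO cold libraries, against 35.5, 25.8 and 32.5 CPM in KO RT, and at 24.8, 14.8, 17.3 and 29.6 CPM in the control cold libraries and 35.4 and 38.0 CPM in control RT, so that cold was below RT in both genotypes without overlap. It fell in control (log2 fold change -0.76 ± 0.25, SE; adjusted p = 0.0316) and did not pass in KO (-0.61 ± 0.22; adjusted p = 0.0669). The control call was lost under 8 of 19 alternatives, DESeq2 and the removal of either control RT library among them. Sec24a lay at 0.28 in KO and 0.16 in control and did not pass. Sec23a lay at -0.11 and 0.25, and Sec23b at 0.42 and -0.02; none passed.

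**Figure D4:**
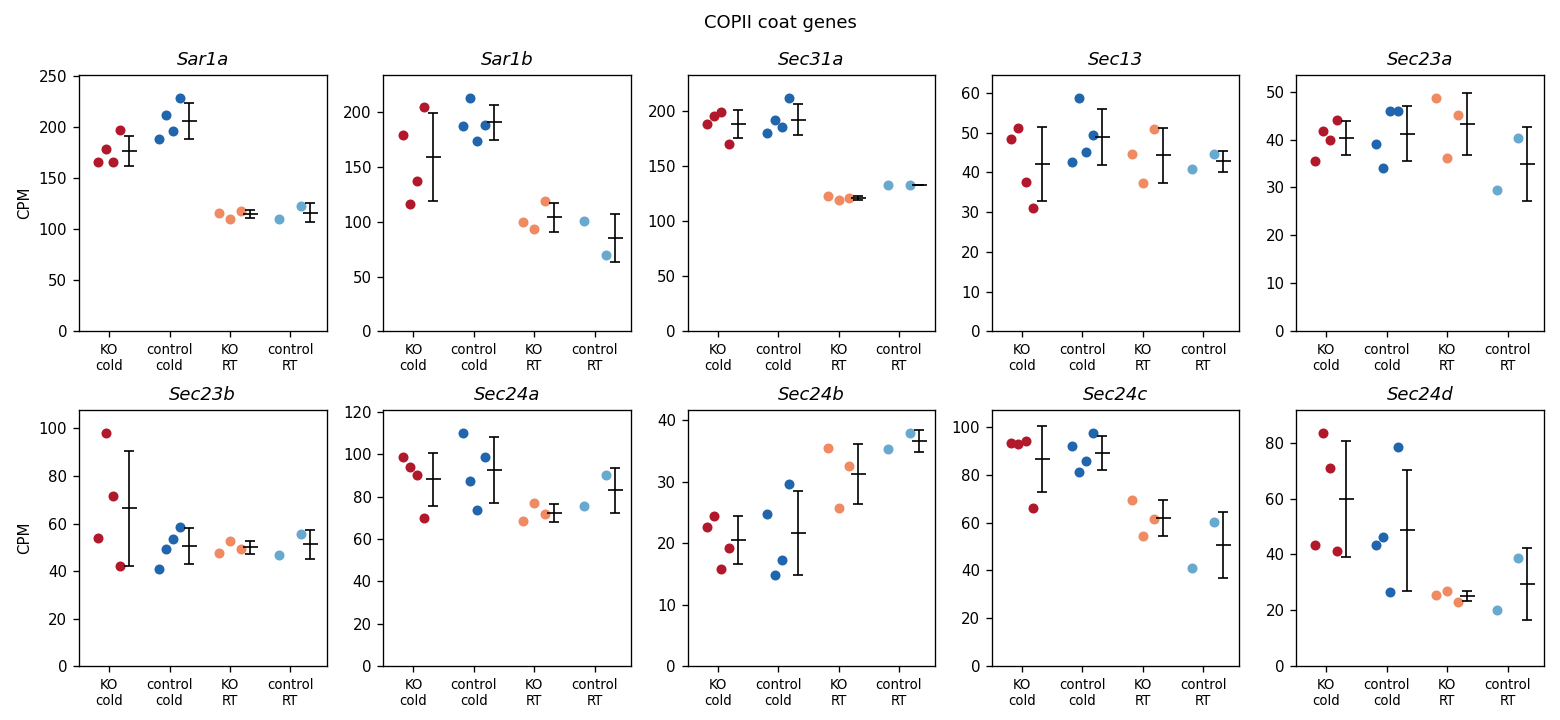
CPM of the 10 COPII coat genes in each library (points) of KO cold, control cold, KO RT and control RT, with the mean and SD of each group beside them. Sar1a and Sec31a separate both cold groups from both RT groups, Sec24b lies lower in cold within each genotype, and Sec13 and Sec23a overlap across all 4 groups.

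Before the COPII stage, Srp72, the subunit that joins Srp68 in holding the signal recognition particle together, stood at 254.6, 258.2, 247.0 and 238.7 CPM in the KO cold libraries, 142.8, 165.3 and 161.1 CPM in KO RT, 221.2, 205.1, 170.4 and 244.9 CPM in the control cold libraries and 143.5 and 172.4 CPM in control RT. Cold and RT were apart in KO and overlapped through control cold library 3 in control. It rose by 0.67 ± 0.13 in log2 in KO (SE; adjusted p = 0.00159) and by 0.42 ± 0.15 in control (adjusted p = 0.0462), the control call being lost under 15 of 19 alternatives. Srpr, the receptor subunit that docks the particle at the ER, stood at 43.5, 65.2, 50.6 and 49.7 CPM in the KO cold libraries, against 31.9, 38.4 and 30.4 CPM in KO RT, without overlap, and rose by 0.64 ± 0.16 (adjusted p = 0.00972). In control it stood at 46.1, 40.8, 47.1 and 50.1 CPM in cold and 39.5 and 39.2 CPM at RT, also without overlap, and did not pass (0.22 ± 0.18; adjusted p = 0.387). Srpr overlaps Foxred1 on the opposite strand, which had 2769 counts against 1006 for Srpr and a log2 fold change of 0.36 ± 0.12 in KO (adjusted p = 0.0518); whether strand was used in counting is not given.

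Sec61a1 stood at 158.5, 258.8, 223.9 and 174.9 CPM in the KO cold libraries, against 153.5, 160.7 and 129.6 CPM in KO RT. KO cold library 1 lay among the RT values, and the log2 increase of 0.47 ± 0.16 (SE; adjusted p = 0.0472) was lost under 9 of 19 alternatives. In control it stood at 180.3, 166.8, 211.9 and 194.8 CPM in cold and 164.2 and 171.2 CPM at RT, with a log2 fold change of 0.17 ± 0.18 that did not pass. Sec63, Rpn1 and Spcs2, whose levels are given above, rose in KO by 0.61 ± 0.12, 0.65 ± 0.12 and 0.51 ± 0.13 in log2 (adjusted p = 0.00272, 0.00116 and 0.0141). In control the same genes lay at 0.26 ± 0.14, 0.10 ± 0.13 and 0.13 ± 0.15 and did not pass. The KO cold libraries enter both this comparison and that of KO against control in cold, so the results share data.

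In the COPI coat, Copa stood at 148.7, 185.2, 144.6 and 152.4 CPM in the KO cold libraries, against 118.0, 119.9 and 116.0 CPM in KO RT, without overlap, and rose by 0.42 ± 0.12 in log2 (SE; adjusted p = 0.0205). That call was lost under 6 of 19 alternatives, with adjusted p of at most 0.24; leaving out KO cold library 2 or any one KO RT library was among them. In control it stood at 140.5, 136.5, 138.8 and 160.2 CPM in cold and 116.8 and 132.0 CPM at RT and did not pass (0.21 ± 0.14; adjusted p = 0.268). Copb1 stood at 246.5, 241.6, 160.4 and 226.6 CPM in the control cold libraries and 126.4 and 166.3 CPM in control RT, overlapping through control cold library 3, and rose by 0.58 ± 0.17 (adjusted p = 0.02), a call lost under 4 of 19 alternatives, among them leaving out control cold library 1 or control RT library 1. In KO it stood at 208.7, 225.4, 208.7 and 190.7 CPM in cold and 163.6, 142.9 and 165.9 CPM at RT, without overlap, and did not pass (0.40 ± 0.15; adjusted p = 0.0674). The remaining COPI genes Copb2, Cope, Copg1 and Arcn1 lay between 0.04 and 0.36 in KO and between -0.08 and 0.40 in control, with none passing.

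The other genes of ER entry and glycosylation passed in neither genotype. Dad1, a small oligosaccharyltransferase subunit, stood at 75.5, 86.5, 99.1 and 98.1 CPM in control cold against 71.3 and 59.1 CPM in control RT, without overlap (0.46 ± 0.17 in log2, SE; adjusted p = 0.0545), and in KO it overlapped (0.23 ± 0.15). The other 6 subunits (Rpn1 aside) ranged from -0.09 (Rpn2) to 0.32 (Stt3a) in KO and from -0.31 (Ddost) to 0.20 (Stt3b) in control. Ssr4, the delta subunit of the TRAP complex, lay higher in each cold than in each RT library of both genotypes, at 0.26 in KO and 0.31 in control, while Ssr1, Ssr2 and Ssr3 lay between -0.01 and 0.16 in KO and between -0.17 and 0.14 in control. Sec61g lay at 0.57 ± 0.23 in KO (adjusted p = 0.0859) and 0.39 ± 0.26 in control, and Sec61b at -0.10 and -0.02. The signal peptidase genes other than Spcs2 lay between -0.14 (Sec11c) and 0.12 (Sec11a) in KO and between -0.26 (Spcs3) and 0.31 (Spcs1) in control. Srp9 and Srp14, which pause the ribosome, lay at 0.01 and 0.18 in KO and at -0.05 and 0.10 in control; Srp68 lay at 0.33 and 0.25, and Srprb at -0.07 and -0.22.

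No cargo receptor passed in either genotype. Lman1 lay at 0.16 ± 0.12 in KO and at -0.38 ± 0.14 in control, where the adjusted p was 0.0505. Kdelr1 and Kdelr2 lay at -0.12 and -0.14 in KO and at -0.25 and 0.01 in control, and Tmed2 and Tmed10 at 0.12 and 0.15 in KO and at 0.31 and 0.13 in control. The third KDEL receptor, Kdelr3, was too low to test: 5 counts in KO cold against 16 in KO RT, a ratio of 0.247 after scaling (95% counting interval 0.0709 to 0.707), and 3 counts in control cold against 7 in control RT, a ratio of 0.257 (0.0429 to 1.13). Its levels of 0.52 to 1.13 CPM in the KO cold libraries all lay below the 2.53 to 3.44 CPM of KO RT. All 3 counts of control cold came from 1 library. Kdelr3 overlaps Ddx17, which had 8208 counts, on the opposite strand. Srp54a, which binds the signal sequence, had 10 counts in KO cold, 9 in control cold, 7 in KO RT and 5 in control RT, and its near-identical copies Srp54c and Srp54b had 24 and 0 counts, so its level is uncertain.

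Cold responses were not shown to differ between genotypes for any member. In the test of the difference itself, KO cold minus KO RT set against control cold minus control RT, none of 48 members passed by edgeR's quasi-likelihood test or by DESeq2, where 0.0181% of all genes passed by edgeR; 2 members had an unadjusted p under 0.05, as had 913 of 11073 genes. They were Rpn1, with a difference of 0.55 ± 0.18 in log2 (SE; 95% interval 0.17 to 0.92; unadjusted p = 0.00661, adjusted p = 0.414), and Lman1, with 0.54 ± 0.18 (95% interval 0.16 to 0.93; unadjusted p = 0.00853, adjusted p = 0.429). The difference was above 0 for 32 of 48 members, with a median of 0.11, against 50.3% of all genes and a median of 0.00.

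**Figure D5:**
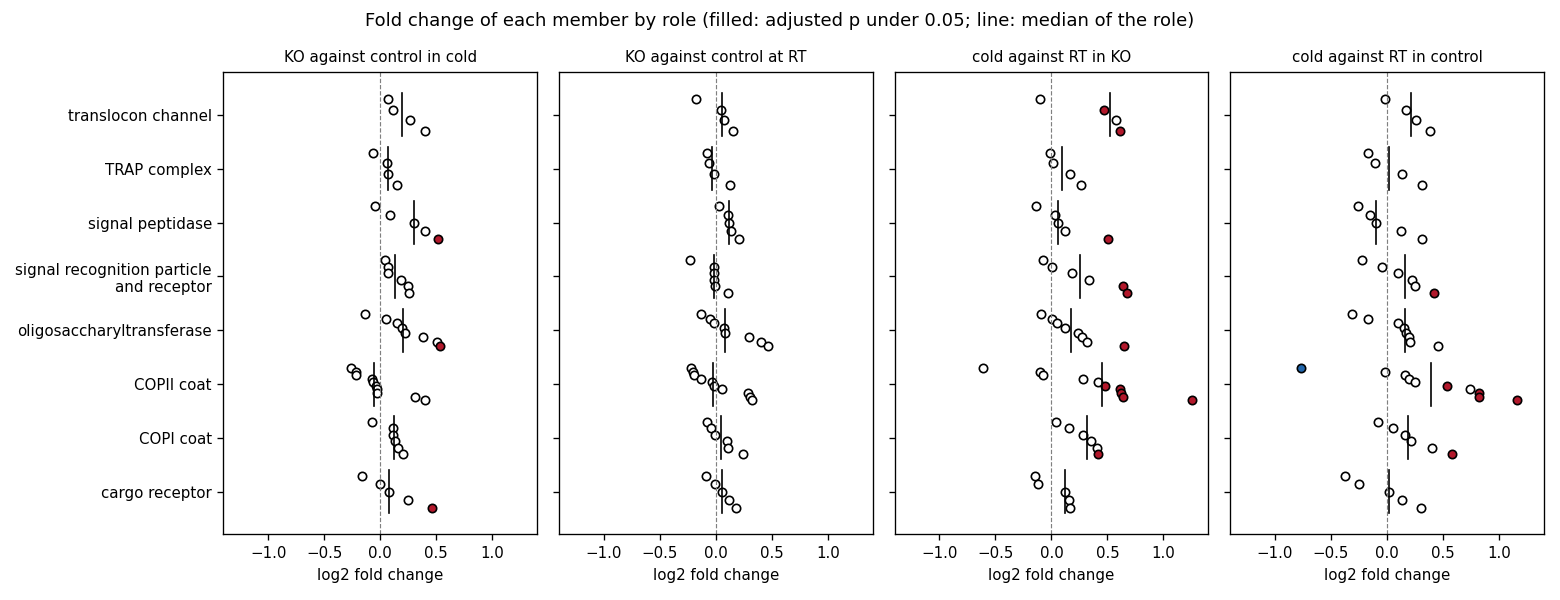
Log2 fold change of each tested member (points) by role in 4 panels: the genotypes compared in cold, then at RT, and cold compared with RT, first in KO and then in control. Red points rose and blue points fell at an adjusted p under 0.05, and vertical lines are role medians; 3, 0, 12 and 7 points are filled in the 4 panels.

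To see what the members share in sequence, the promoter window of each gene, 250 bases before to 50 bases after the start, was taken from RefSeq on build GRCm38.p6 and searched on both strands; the counts were made on GRCm39, so these positions belong to the RefSeq build alone. The table matched 40 of the 50 members, with 44 windows. The core TGACGTGG, known from promoters bound by the stress factors ATF6 and XBP1, stood in 5 of the 40 (12.5%), against 0.714% of 27025 genes; it shares the letters TGACGT with the cAMP response element. The 5 were Sec24d, Copb1, Copb2, Sec23a and Kdelr3, all of them coat or cargo receptor genes. The 27025 genes were not matched to the members in expression or base content, and the difference in shares was not tested. The ER stress element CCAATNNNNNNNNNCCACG stood in 0 of 40, against 0.137% of genes, and the second ER stress element ATTGGNCCACG in 1 of 40, Krtcap2, against 0.0444% of genes. The stretches that hold the core are shown because the core is what these 5 genes have in common. Capitals mark the core, as TGACGTGG on the gene's own strand or CCACGTCA on the other. Each stretch runs from 60 bases before the start to 40 after it.
Sec24d: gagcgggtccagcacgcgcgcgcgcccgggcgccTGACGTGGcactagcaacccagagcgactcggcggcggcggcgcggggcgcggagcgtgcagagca
Copb1: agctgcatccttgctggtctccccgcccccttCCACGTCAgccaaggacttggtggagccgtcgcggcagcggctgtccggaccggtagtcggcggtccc
Copb2: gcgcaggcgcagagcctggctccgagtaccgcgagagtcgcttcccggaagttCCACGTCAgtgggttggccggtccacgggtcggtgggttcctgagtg
Sec23a: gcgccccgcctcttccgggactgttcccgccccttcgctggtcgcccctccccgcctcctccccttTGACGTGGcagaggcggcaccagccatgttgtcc
Kdelr3: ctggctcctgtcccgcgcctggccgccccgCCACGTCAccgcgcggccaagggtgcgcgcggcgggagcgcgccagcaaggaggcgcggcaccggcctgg
They lie at chr3:123267436-123267535 (plus strand), chr7:114254641-114254740 (minus strand), chr9:98563671-98563770 (plus strand), chr12:59011978-59012077 (minus strand) and chr15:79516348-79516447 (plus strand). The core begins 26, 28 and 30 bases before the start in Sec24d, Copb1 and Kdelr3, 7 bases before it in Copb2 and after it in Sec23a.

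Of the 5 genes that hold the core, Sec24d rose in cold in KO and Copb1 in control, Copb2 and Sec23a passed in no comparison, and Kdelr3 had fewer counts in cold than at RT. For comparison, the same stretches are shown for Rpn1, which rose in KO cold against control cold, and for Sar1a and Sar1b, which rose in cold in both genotypes, none of which holds any of the 3 motifs in its window.
Rpn1: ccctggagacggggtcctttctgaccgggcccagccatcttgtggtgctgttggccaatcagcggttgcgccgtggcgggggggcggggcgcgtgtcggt
Sar1a: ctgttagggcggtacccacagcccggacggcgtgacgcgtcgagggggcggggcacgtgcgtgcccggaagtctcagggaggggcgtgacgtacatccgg
Sar1b: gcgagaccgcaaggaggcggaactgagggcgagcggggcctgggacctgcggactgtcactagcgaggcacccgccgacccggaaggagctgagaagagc
They lie at chr6:88084413-88084512 (plus strand), chr10:61680225-61680324 (plus strand) and chr11:51763603-51763702 (plus strand). A match is a description of these letters and not a binding site.

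The wider pathway was read through a second list of 126 genes for translocation, N-glycan assembly, ER exit and Golgi return, of which 120 were tested. In KO cold against control cold 4 rose and 3 fell (5.83%, against 5.93% of all genes). Magt1, a subunit of the STT3B form of the oligosaccharyltransferase, stood at 340.3, 454.9, 397.2 and 396.2 CPM in the KO cold libraries, against 270.7, 325.0, 311.6 and 240.7 CPM in the control cold libraries and rose by 0.47 ± 0.12 in log2 (SE; adjusted p = 0.0327). Bcap29, an ER membrane protein that helps to export other membrane proteins, rose by 0.61 ± 0.14 (adjusted p = 0.0158). Gmppb, which makes the mannose donor GDP-mannose, and the COPI subunit Copg2 rose by 0.95 and 1.12 from low levels, with means of 18.4 ± 4.4 and 11.7 ± 3.5 CPM in KO cold against 9.6 ± 2.2 and 5.2 ± 1.9 CPM in control cold (SD, n = 4 each).

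Ergic1, a protein of the compartment between ER and Golgi, stood at 118.7, 88.2, 96.8 and 109.5 CPM in the KO cold libraries, against 205.6, 216.9, 236.0 and 182.8 CPM in the control cold libraries and fell by 1.03 on the log2 scale (SE 0.15; adjusted p = 0.000466). It overlaps Dusp1 on the opposite strand, which had 4677 counts and a log2 fold change of -1.03 ± 0.30 (adjusted p = 0.0543). Cnih4, a cargo receptor for membrane receptors, stood at 104.0, 89.7, 108.6 and 113.4 CPM in the KO cold libraries, against 163.6, 174.2, 141.9 and 196.2 CPM in control cold (log2 fold change -0.70 ± 0.12; adjusted p = 0.00222), and in control it rose in cold by 0.73 ± 0.15 (adjusted p = 0.00228). Nus1, needed to make the dolichol that carries the sugar chain, fell in KO cold against control cold (-0.40 ± 0.11; adjusted p = 0.0407). In cold against RT 10 wider genes rose and 7 fell in KO (14.2%, against 18.9% of all genes), and 14 rose and 8 fell in control (18.3%, against 25.2%), so both shares are below those of all genes. The p24 gene Tmed5 rose in both, by 1.29 ± 0.14 and 1.28 ± 0.16, with 1276.5 to 1480.1 CPM in the KO cold libraries, 471.6 to 682.9 CPM in KO RT, 1217.3 to 1492.2 CPM in the control cold libraries and 452.0 to 644.8 CPM in control RT. Rab1a, the GTPase that tethers ER-derived vesicles, rose by 0.63 ± 0.11 and 0.75 ± 0.13, and Ccdc47, a translocon partner in membrane protein insertion, by 0.79 ± 0.12 and 0.82 ± 0.13. Sec62, Gnpnat1 and Lman2 also rose in both, Dnajc1, Magt1, Alg8 and Ganab in KO, and Emc3, Alg10b, Nus1, Mia2, Sec22b, Golga3 and Tmed7 in control. Of those that fell, Emc9, a subunit of the ER membrane insertion complex, fell in both (-1.07 ± 0.28 in KO and -1.20 ± 0.32 in control). In KO, Alg6 (-1.12), Copz2 (-0.84), Ost4, Cnih1, Arf5 and Arf3 fell as well. In control, Copg2 fell by 1.76 on the log2 scale (SE 0.32; adjusted p = 0.000963), with 3.5 to 7.5 CPM in the control cold libraries and 16.9 to 19.3 CPM in control RT; in KO it stood at 7.8 to 14.7 CPM in cold and 17.8 to 21.0 CPM at RT, also without overlap, and did not pass (-0.71 ± 0.25; adjusted p = 0.061). Get1 (-1.42), Dolpp1 (-1.23), Tmed1 (-1.06), Gmppb (-0.89) and Tram1 also fell in control. The control cold libraries enter these values and those of KO against control in cold, so the results for Copg2, Gmppb, Cnih4 and Nus1 share data. Some named wider genes besides Ergic1 also overlap a gene on the opposite strand. Among them are Emc9 (293 counts, Psme1 1456), Dolpp1 (154, Crat 5244), Tmed1 (317, Dnm2 682) and Gmppb (349, Rnf123 211). None of the 120 passed at RT or in the difference of cold responses by edgeR, where 2 and 15 had an unadjusted p under 0.05.

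Of 10 genes that drive or mark the unfolded protein response, 2 rose in KO cold against control cold and none fell (20%, against 5.93% of all genes in either direction and 2.44% rising). Hspa5, the ER chaperone BiP, which works with Sec63 at the translocon, stood at 1513.5, 2479.7, 2203.5 and 1436.8 CPM in the KO cold libraries, against 695.2, 868.7, 768.2 and 1490.8 CPM in control cold, overlapping through control cold library 4, and rose by 0.999 ± 0.23 in log2 (SE; adjusted p = 0.0165). Creb3l2, a membrane-bound transcription factor known in mouse cartilage to activate Sec23a, rose by 0.92 ± 0.25 (adjusted p = 0.04), while Sec23a itself lay at -0.03. Xbp1 lay at 0.95 ± 0.29 (adjusted p = 0.0588) and Atf6 at -0.06 ± 0.17 (adjusted p = 0.882). In cold against RT, 5 of the 10 rose and none fell in KO, and 3 rose and 2 fell in control (50% each, against 18.9% and 25.2% of all genes). Atf6, Atf4 and Dnajb9 rose in both genotypes. In KO, Creb3l2 stood at 16.9 to 38.6 CPM in cold and 24.3 to 29.3 CPM at RT and did not pass (-0.09 ± 0.24). In control it stood at 9.9 to 16.7 CPM in cold and 27.7 to 31.7 CPM at RT and fell (-1.16 ± 0.29; adjusted p = 0.00786); the difference between genotypes, 1.07 ± 0.38, did not pass (adjusted p = 0.445). Its relative Creb3l1 fell in control as well (-2.07 ± 0.67, adjusted p = 0.0305). In KO Creb3l1 did not pass, and its difference between genotypes did not pass either, so a fall in control alone is not shown. Hspa5 and Ddit3 passed in KO and not in control, with differences between genotypes of 0.99 ± 0.37 (adjusted p = 0.493) and 1.72 ± 0.75 (adjusted p = 0.555) that did not pass.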

How the data were processed

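RNA of mouse BAT was read as 3′ tags (QuantSeq 3′ mRNA-Seq, per the labels' protocols). The authors deposited unscaled counts per gene. The build was GRCm39 and the tools were HTSeq 0.12.3, STAR 2.7.10b, Trim Galore 0.6.7, UMI-tools 1.1.2, limma and edgeR, per the submitters' processing notes; the annotation is Ensembl 103, per the deposited table's name. Whether counting used strand or molecular identifiers is not given in the sources used here, so reads of a gene and of an overlapping or antisense partner cannot be told apart, and counting intervals cover counting error only. In the GENCODE annotation of GRCm38 26 members overlap another gene, and for 6 (Spcs1, Spcs3, Sec11a, Srpr, Kdelr3 and Tmed10) that gene had over 1/10 of the member's counts.

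Of 55632 lines, 275 repeated an identifier and were dropped. In R 4.3.3, edgeR 4.0.16 kept genes by filterByExpr (minimum count 10), scaled them by trimmed mean of M values and fitted all 13 libraries with a coefficient per group; 5 contrasts were tested, two-sided, by the quasi-likelihood test with Benjamini-Hochberg adjustment over all 11073 genes. SEs come from the fold change and its test statistic. Replicate pairs all differed by more than counting noise (chi-square over degrees of freedom 1.92 to 6.36). The members and lists were chosen with earlier results of these data known. All members could be named; values per library are given for those passing in a contrast and some near it, wider genes were named where they passed, except 1 that is not reported here. Alternatives were DESeq2 1.42.0, another scaling, no filter, a replicate block, the compared groups alone, leaving out each library, and leaving out 3 libraries high in muscle markers, which was chosen after seeing the data.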

Additional observations from a re-analysis of the deposited data

Results flagged for a closer look

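In groups of 4 libraries, 5 of 114 sets (each tested member and each summed level, in KO cold and in control cold) held 1 library apart from the other 3 by Dixon's test at 95%; chance gives about 1 in 20. Ssr2 stood at 63.0 CPM in KO cold library 3, against 70.4 to 71.7 CPM in the other KO cold libraries. Sec24c stood at 66.0 CPM in KO cold library 4, against 92.9 to 93.9 CPM in the others. Srprb stood at 21.7 CPM in control cold library 3, against 10.6 to 12.4 CPM in the others. Krtcap2 stood at 30.5 CPM in control cold library 1, against 38.9 to 40.2 CPM, and Copa at 160.2 CPM in control cold library 4, against 136.5 to 140.5 CPM. Only Sec24c and Copa passed in a comparison. No member was called in the test of the difference between cold responses.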

How the results depend on the processing

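The number of members called in KO cold against control cold was 3 and ran from 1 to 4 when each library was left out; without KO cold library 2 or 3 only Rpn1 passed. Cold against RT in KO gave 12 calls, and 6 to 14 with each library left out: 6 without KO RT library 1 and 7 without KO RT library 2. Cold against RT in control gave 7, and 2 to 7 with each library left out: 2 without control RT library 1, Sar1a and Sar1b. Fitted on the compared groups alone it gave 4. Leaving out the 3 libraries high in muscle markers gave log2 fold changes of 0.34 to 1.37 for the 12 KO members, against 0.42 to 1.25 with all libraries. It leaves 1 RT library per genotype, assumed to vary like the other groups, so the number of calls is not given. Shares of all genes that passed under the alternatives are not given here. The cause of the changes in these counts was not tested. KO against control at RT and the difference of cold responses gave 0 under each alternative.

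With the replicate block the 5 contrasts gave 3, 0, 8, 5 and 0 calls (KO in cold, KO at RT, cold in KO, cold in control, difference). The labels do not say that replicate numbers pair the samples. Of 16 same-numbered pairs, correlations of deviations ran from -0.23 to 0.33 and 3 exceeded 0.1. Deviations of the 2 control RT libraries mirror each other, so this check cannot exclude a pairing. DESeq2 gave 4, 0, 11, 6 and 0. Over single genes, 370 of 456 results under an alternative kept direction and side of the threshold, 82 no longer passed, 4 newly passed (Sec63 in KO cold) and 0 reversed. Another scaling moved the median of all genes by less than 0.01 in log2. Members with few counts, such as Spcs3 and Srprb, have SEs of 0.22 and 0.27 in KO cold against control cold, so small changes could not be detected there.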
